A study of Mus musculus with 6 samples.

Results

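The ubiquitin-specific proteases (USPs) are the protein-coding mouse genes whose symbol begins with Usp and a number. All such genes of the GENCODE M21 annotation were taken except Usp18, which gave 55 genes among the 24376 gene IDs of each table. The rule used names only and no measured value. It also takes Usp6nl, which shares part of its name with the family but encodes a GTPase-activating protein for Rab proteins and no protease. RNA was sequenced from blood progenitors of C57BL/6 mouse embryos at stage E14.5, which were enriched from fetal liver, infected at once with a retrovirus and cultured for 3 days. The control group received a control short hairpin RNA (shRNA, 3 libraries) and the shSamd14 group an shRNA directed at Samd14 (3 libraries). Both groups were infected, cultured and sorted alike, with 200000 cells negative for CD71 and Ter119 lysed per library. The target of the control hairpin is not given in the sources used here. Nothing in the labels says whether libraries within a group stem from different litters or cultures. Each p-value therefore reflects the spread among these samples alone, and that spread may be technical.

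USPs form the largest family of deubiquitinating enzymes. They are cysteine proteases that cut ubiquitin from proteins, and so they can spare a substrate from the proteasome, recycle ubiquitin or erase a ubiquitin mark on histones and receptors. Most members work with a partner that sets their place or activity, such as WDR48 for Usp1, Usp12 and Usp46, or the SAGA transcription complex for Usp22. In blood progenitors Usp1, Usp3, Usp10 and Usp16 are known from mouse mutants with changed stem cell numbers or function.

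The libraries held 20584169 to 26462797 estimated counts. Samd14, the targeted gene, held 82.0, 82.1 and 83.8 counts per 1000000 counts (CPM) in the control libraries and 41.9, 38.8 and 39.4 CPM in the shSamd14 libraries, a log2 fold change of -1.05. Progenitor markers were present, with Kit between 138 and 215 transcripts per 1000000 transcripts (TPM). The mean of Kit was 181 TPM in control and 144 TPM in shSamd14 libraries. Gata2 had 37.6 and 45.1 TPM and Cd48 71.9 and 88.7 TPM in the same order, while Cd34 and Myb differed less. None of the 5 progenitor markers passed the test. The sum of 5 hepatoblast markers was 40.6 to 82.3 TPM in control and 34.7 to 46.5 TPM in shSamd14 libraries, most of it from Apoa1 (32.6 to 80.2 TPM), while Alb did not exceed 1.38 TPM. Transcripts of Tfrc, which encodes CD71, stood at 274 to 352 TPM although the cells were sorted as negative for the protein. The summed level of 8 megakaryocyte markers was 276 to 295 TPM in control and 366 to 407 TPM in shSamd14 libraries, and 3 of the 8 passed the test upward. The sum of 10 erythroid markers was 6161 to 11038 TPM in control and 11391 to 14622 TPM in shSamd14 libraries, with none past the threshold. Neutrophil markers summed to 6354 to 10937 TPM in control and 7593 to 11255 TPM in shSamd14 libraries. Macrophage markers summed to 20.7 to 33.3 and 21.8 to 31.3 TPM, with Cd68 and Csf1r present and C1qa at 0 in all libraries. In bulk RNA, a smaller share of one cell type and less RNA per cell cannot be told apart, and what part these markers have in the USP values was not tested.

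Levels of USP genes spanned a wide range, from over 100 TPM to 0. TPM corrects for transcript length, so it is used to set genes beside each other. Usp14, which sits on the proteasome and trims ubiquitin from arriving substrates, was the highest, at 190, 179 and 168 TPM in control and 173, 185 and 170 TPM in shSamd14 libraries. Usp7, which controls the stability of p53 and its ligase Mdm2, followed at 147, 127 and 118 TPM in control and 119, 124 and 118 TPM in shSamd14 libraries. Usp1, which removes ubiquitin from FANCD2 and PCNA during DNA repair, had 133, 127 and 118 TPM in control and 119, 132 and 116 TPM in shSamd14 libraries. Of the 50-base words of the longest listed transcript, Usp14 shares 45.33% and Usp1 22.85% with another gene, so their levels are less certain. The range of Usp14 lay wholly above that of Usp7, whereas Usp7 and Usp1 did not differ beyond their spread.

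Usp39, a splicing factor with a USP fold that lacks the catalytic residues, had a mean of 104 ± 7.71 TPM (SD, n = 6 libraries), and Usp15, which acts on receptor-regulated SMADs, had 92.8 ± 4.27 TPM. Usp48 (82.9 TPM), Usp5 (77.2 TPM), Usp4 (65.3 TPM), Usp25 (61 TPM) and Usp24 (55.3 TPM) completed the 10 highest by their mean over 6 libraries. Of the 43 neighbouring pairs in this order, only 7 had ranges that did not overlap, so the order of most neighbours is not resolved. In all, 4 members stood at 100 TPM or more, 9 between 50 and 100, 18 between 10 and 50, 10 between 1 and 10, and 14 under 1. The median of the 44 members that could be tested was 25.5 TPM, against 17.4 TPM over the 12670 tested genes. The 5 highest members of each library held 36.3% to 38.9% of its USP transcripts.

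**Figure D1:**
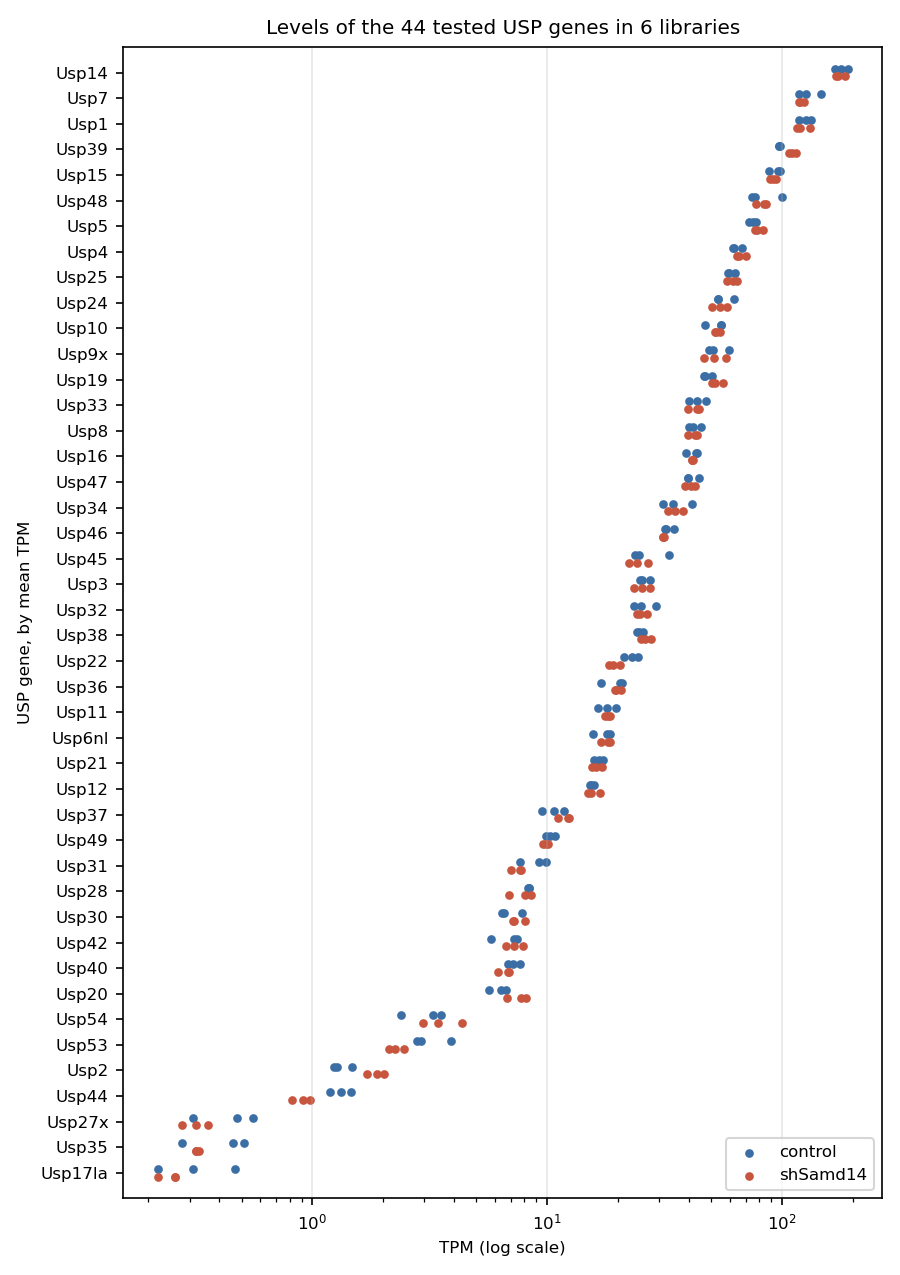
TPM (log axis) of the 44 tested USP genes, ordered by mean, with 1 point per library (blue, control; red, shSamd14). The points of the groups overlap for most genes, from Usp14 at a mean of 177 TPM to Usp17la at 0.29 TPM.

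The lowest tested members were Usp2 at 1.6 TPM, Usp44 at 1.11 TPM, Usp27x at 0.385 TPM, Usp35 at 0.37 TPM and Usp17la at 0.29 TPM. A further 11 members had too few counts to test. Usp51 had 5 to 13 counts per library. Usp13, the closest relative of Usp5, had 0 to 5 counts per library, while Usp5 held 77.2 TPM. Usp17lc had at most 3 counts, Usp50 and Usp43 at most 2 and Usp26, a testis gene, at most 1 in any library. Usp17lb, Usp17ld, Usp17le, Usp29 and Usp9y had 0 counts in all 6 libraries, and 3 counts, the limit that a count of 0 allows, correspond to 0.113 to 0.146 CPM. This limit covers counting error only. For Usp29, 96.72% of the 50-base words of its longest listed transcript also occur in Zim3, so its count of 0 is less certain. The copies of Usp17l are near-identical in part: 51.08% of the 50-base words of the Usp17ld transcript also occur in other genes, so how reads were divided among them is uncertain. Usp9y, the Y-linked copy of Usp9x, was at 0 although other Y-linked genes were present in every library, with Uty between 7.29 and 10.1 TPM and Eif2s3y between 36.2 and 66.3 TPM.

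The design asks which genes differ when Samd14 is lowered, and no USP gene passed. Of the 44 tested members, 0 had an adjusted p under 0.05 by edgeR's quasi-likelihood test, where 2.58% of all tested genes (327) did. DESeq2 called 1 of the 40 members it gave an adjusted p, Usp22, against 4% of its genes, and limma on log2(TPM + 1) called none of 41. At an unadjusted p under 0.05, edgeR had 7 of 44 members, 5 of them lower and 2 higher in shSamd14, which is 15.9% against 15% of all tested genes (7.92% lower and 7.07% higher). The CPM of the groups did not overlap for 10 members, 5 lower and 5 higher, or 22.7% against 20.7% of all genes (10.2% lower and 10.5% higher). These shares were near the background of the whole table. With any 1 library left out, the count over all genes fell to between 128 and 283. It was 153 without control replicate 1 and 128 without shSamd14 replicate 2, while that of the USP genes was 0 in each. Such fits also hold fewer libraries and so have less power, and how much of the fall is due to that was not tested.

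The family total did not separate the groups. Members summed to 1769, 1612 and 1559 TPM in control libraries and to 1586, 1676 and 1660 TPM in shSamd14 libraries, 1647 ± 109 and 1640 ± 48 TPM (SD, n = 3 each), and these groups overlap. The median log2 fold change over the 44 members was -0.032, against 0.006 over all tested genes, and 27 of 44 members (61.4%) had a negative value, against 48.4% of all genes. Without control replicate 1 the median of the members was -0.009.

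The intervals of the differences were narrow for most members. For 27 of 44 genes (61.4%) the 95% interval of the fold change lay wholly inside a 1.2-fold change in either direction, against 39.4% of all tested genes, and for 38 (86.4%) it lay inside 1.5-fold, against 77.8%. The 31 members with a mean of 10 TPM or more had log2 fold changes from -0.26 to 0.17, and no interval among them reached below -0.40 or above 0.31. The 6 members whose interval reached 1.5-fold were the sparsely counted Usp2, Usp17la, Usp27x, Usp35, Usp44 and Usp53, and those of Usp17la and Usp27x reached 2-fold, so changes of that size are not excluded for them.

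**Figure D2:**
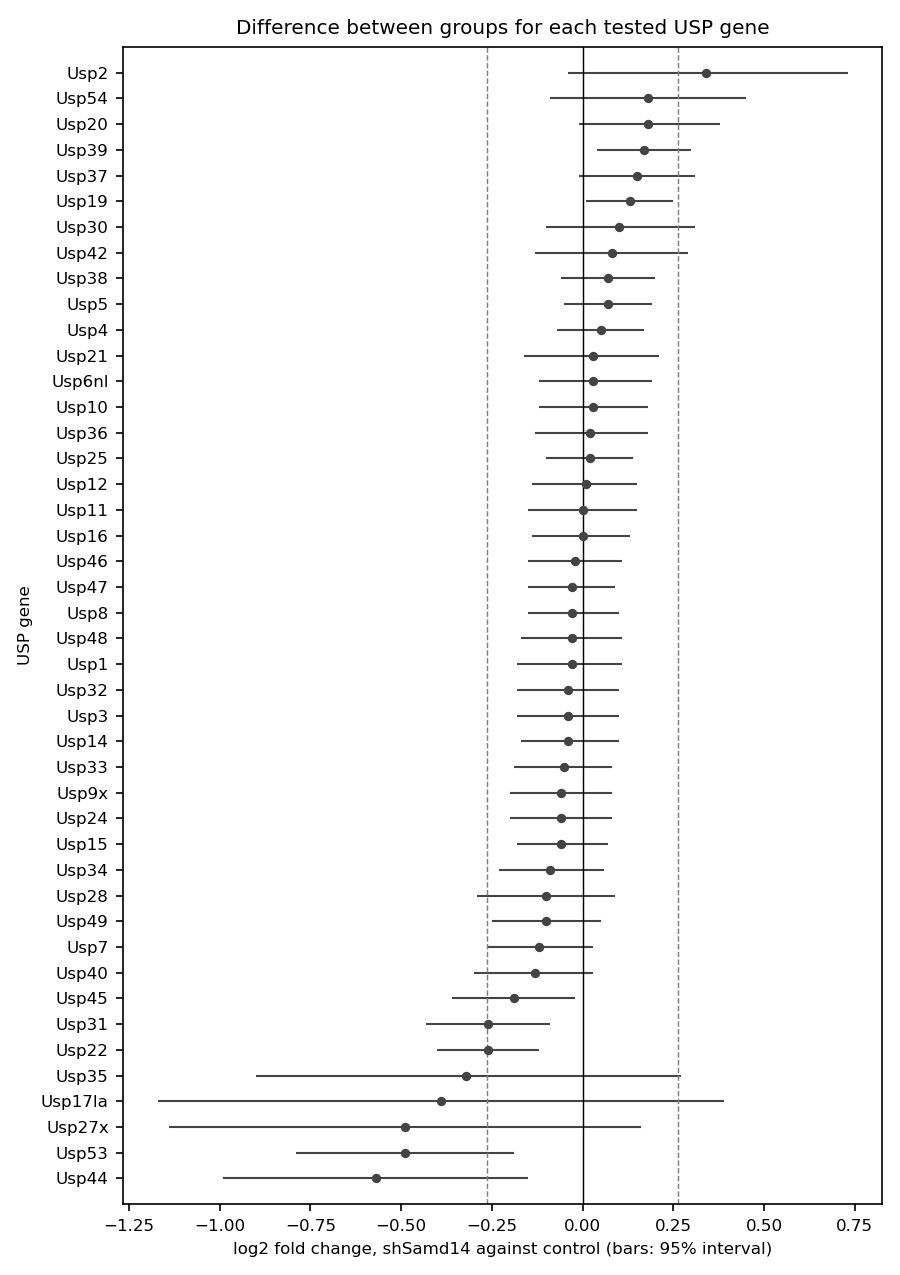
Log2 fold change of each tested USP gene (points) with its 95% interval (bars) from edgeR; dashed lines mark a 1.2-fold change in either direction. The bars of 27 genes stay between the dashed lines, and those of Usp17la and Usp27x are the widest.

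Histone deubiquitinases held the member with the smallest p, and 0 of the 9 tested passed. Usp22 (ENSMUSG00000042506; chromosome 11, 61151785 to 61175055, minus strand, mm10) is the protease of the SAGA complex and removes ubiquitin from histones H2B and H2A. It had 63, 57.8 and 62.9 CPM in control against 52.1, 48.7 and 52.7 CPM in shSamd14 libraries. All 3 shSamd14 libraries lay below all 3 control libraries. Its mean was 61.2 ± 2.96 CPM in control and 51.2 ± 2.19 CPM with shSamd14 (SD, n = 3 each), a fold of 0.836 with a 95% interval of 0.758 to 0.922. Its adjusted p by edgeR was 0.0548, just above the threshold, and it was 0.0348 by DESeq2 and 0.03 by edgeR without a filter on low counts, so the call was not the same in these fits. With any 1 library left out, the adjusted p by edgeR lay between 0.0562 and 0.207.

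The enzymes that can take the place of Usp22 on the same module were scarce: Usp27x stood at 0.45 ± 0.128 TPM in control and 0.32 ± 0.04 TPM in shSamd14 libraries, and Usp51 at 0.21 ± 0.0624 and 0.27 ± 0.131 TPM, against 22.8 ± 1.59 and 19.2 ± 1.05 TPM for Usp22. Usp44 (chromosome 10, 93831555 to 93858088), which acts on histone H2B and in the mitotic checkpoint, had 2.03, 2.61 and 2.37 CPM in control against 1.48, 1.59 and 1.67 CPM in shSamd14 libraries. These groups did not overlap either, but each library held only 37 to 60 counts, and the log2 fold change of -0.57 (95% interval -0.99 to -0.15) had an adjusted p of 0.172 by edgeR.

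Other histone deubiquitinases were close to equal. Usp16, which removes ubiquitin from histone H2A before mitosis, had 76.1, 79.4 and 71.6 CPM in control against 78.3, 74.7 and 73.4 CPM in shSamd14 libraries, a fold of 0.997 with an interval of 0.908 to 1.1. The sets of values interleave. Usp3, another H2A enzyme, had a fold of 0.972 (interval 0.881 to 1.07). Usp21, Usp36, Usp42 and Usp49 had log2 fold changes of 0.03, 0.02, 0.08 and -0.10, none past the threshold. Of the exonic bases of Usp49, 51.18% lie in a read-through gene on the same strand, Gm20517, so its count is uncertain.

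Members of DNA repair, p53 control and the cell cycle showed the same picture, with 0 of 11 tested past the threshold and a median log2 fold change of -0.03. Usp7 had 372, 339 and 318 CPM in control against 322, 326 and 302 CPM in shSamd14 libraries, a fold of 0.923 (interval 0.833 to 1.02; adjusted p = 0.473 by edgeR). The highest of the 6 was control replicate 1, and the other values of the groups overlap. Usp1 had 263, 266 and 249 CPM in control against 255, 274 and 232 CPM in shSamd14 libraries, a fold of 0.979 (interval 0.885 to 1.08). Its longest listed transcript shares 22.85% of its 50-base words with the processed pseudogene Gm5841, so its count is less certain than that of most members.

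Usp45, which acts in nucleotide excision repair, had 99.6, 83.4 and 82.4 CPM in control against 73.9, 83.2 and 75.3 CPM in shSamd14 libraries. Control replicate 1 stood above the rest and the remaining values overlapped. Its log2 fold change was -0.19 (SE 0.08; adjusted p = 0.261 by edgeR) and -0.102 at the smallest with 1 library left out. Usp37, a cyclin A deubiquitinase, had 49.9, 47.9 and 42.3 CPM in control against 49.6, 53.5 and 52.4 CPM in shSamd14 libraries, a fold of 1.11 (interval 0.996 to 1.24). Usp2, which in other tissues follows the circadian clock, had 1.93, 2.44 and 2.16 CPM in control against 2.6, 2.89 and 2.82 CPM in shSamd14 libraries, without overlap but with an adjusted p of 0.406 by edgeR. Usp10, which acts on p53 and binds the stress granule protein G3bp1, had a fold of 1.02 (interval 0.918 to 1.13). Usp11, Usp24, Usp28, Usp47 and Usp48 had log2 fold changes between -0.10 and -0.00.

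**Figure D3:**
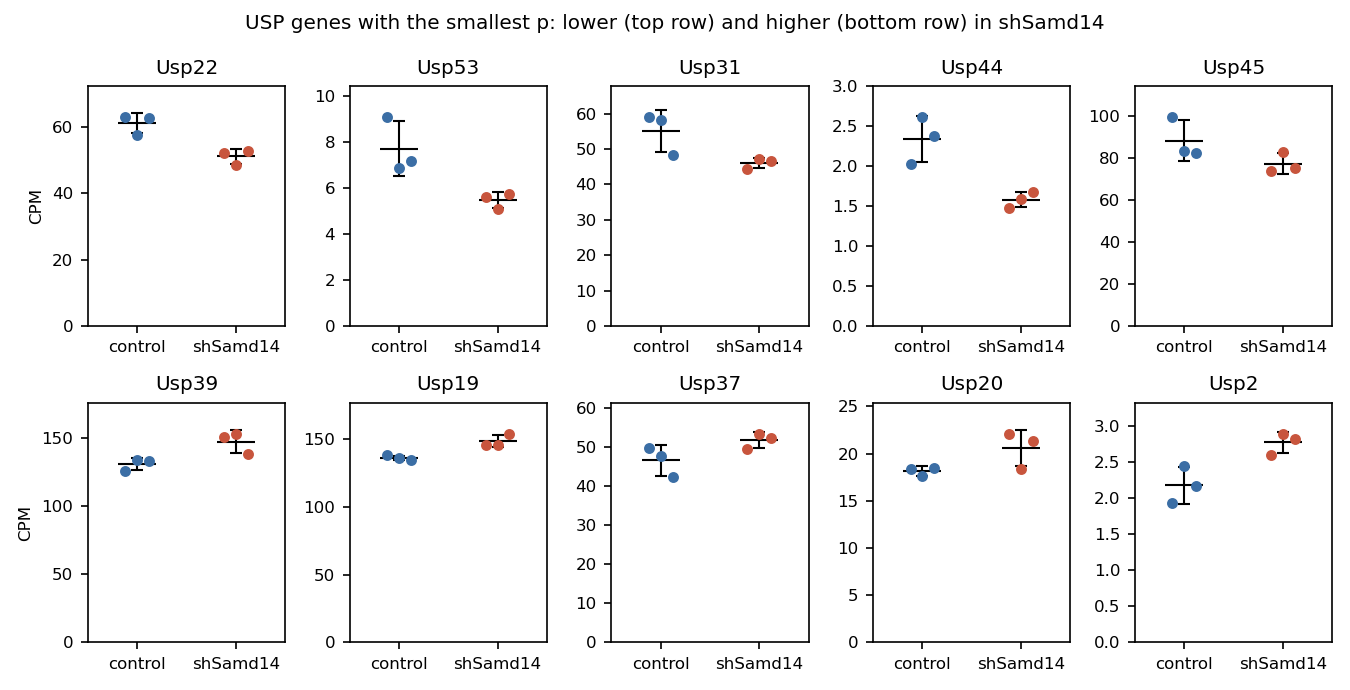
CPM per library (points) with the group mean and SD (bars) for the 5 USP genes of smallest p in each direction, each panel from 0. In the top row the shSamd14 points of Usp22, Usp53, Usp31 and Usp44 lie below all control points; in the bottom row those of Usp39, Usp19 and Usp2 lie above.

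Of the members tied to the proteasome and to free ubiquitin, 0 of 2 tested passed. Usp14 had 244, 244 and 231 CPM in control against 238, 244 and 220 CPM in shSamd14 libraries, a fold of 0.976 (interval 0.891 to 1.07). Its longest listed transcript, of 4726 bases, shares 45.33% of its 50-base words with Thoc1. The length of Usp14 weighted by transcript share was 2251 bases in control and 2246 bases in shSamd14 libraries. How far that share applies to its counted reads is therefore not known. Thoc1 overlaps Usp14 on the opposite strand over 25.99% of the exonic bases of Usp14. The use of strand in counting is not given in the sources used here. Usp5, which takes apart unanchored ubiquitin chains, had 137 ± 3.52 CPM in control against 144 ± 2.77 CPM in shSamd14 libraries, without overlap (adjusted p = 0.608 by edgeR).

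Among members listed under endosome, secretory pathway and receptor turnover, 0 of 9 passed. Usp31 (chromosome 7, 121642021 to 121707253, minus strand) had 59, 58.2 and 48.2 CPM in control against 44.5, 47.3 and 46.5 CPM in shSamd14 libraries. The groups did not overlap, although control replicate 3 lay close to the highest shSamd14 library. Its log2 fold change was -0.26 (95% interval -0.43 to -0.09; adjusted p = 0.116 by edgeR). Without control replicate 3 it was -0.353 and passed, with an adjusted p of 0.0226, and this was the only one of the 6 fits with 1 library left out in which a USP gene passed.

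Usp19, an enzyme anchored in the membrane of the endoplasmic reticulum, had 138, 136 and 135 CPM in control against 146, 146 and 154 CPM in shSamd14 libraries, without overlap, a fold of 1.09 (adjusted p = 0.299 by edgeR). Usp20, which acts on receptors and on proteins bound by the von Hippel-Lindau ligase, had 18.4, 17.6 and 18.5 CPM in control against 22.1, 18.4 and 21.3 CPM in shSamd14 libraries, with shSamd14 replicate 2 inside the control range. Its relative Usp33 had a log2 fold change of -0.05. The longest listed transcript of Usp33 shares 39.08% of its 50-base words with other genes, so its count is less certain. Usp8, which works with the ESCRT-0 protein Stam on endosomes, had 106 ± 3.66 and 104 ± 1.95 CPM, a fold of 0.982 (interval 0.902 to 1.07). The WDR48 partners Usp12 and Usp46 had log2 fold changes of 0.01 and -0.02, Usp32 had one of -0.04 and Usp6nl one of 0.03. WDR48 itself (Wdr48) had 71.9 ± 1.9 and 70.8 ± 1.8 CPM.

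Members listed under growth factor, TGF-beta and Wnt signalling lay between log2 fold changes of -0.13 and 0.07, with 0 of 7 past the threshold. Usp9x, a very large enzyme with many substrates that include the survival protein Mcl1, had 263, 236 and 230 CPM in control against 222, 238 and 240 CPM in shSamd14 libraries, a fold of 0.96 (interval 0.871 to 1.06). The groups overlap. Usp15 had a fold of 0.962 (interval 0.881 to 1.05), its relative Usp4 one of 1.04, and Usp34, which acts on axin, one of 0.942. Of the 50-base words of the longest listed Usp34 transcript, 16.81% also occur in Ahsa2. Usp40 had 22.6, 21.3 and 22.3 CPM in control against 19.4, 20.7 and 20.2 CPM in shSamd14 libraries, without overlap but with an adjusted p of 0.468 by edgeR. The mitochondrial enzymes Usp30 and Usp35 had log2 fold changes of 0.10 and -0.32, with intervals that included 0.

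Of the members listed here as without protease activity, 0 of 3 tested passed. Protease activity itself was not measured. The groups did not overlap for 2 of the 3, where 20.7% of all tested genes had such groups. Usp39 (ENSMUSG00000056305; chromosome 6, 72318678 to 72345184, minus strand) had 126, 134 and 133 CPM in control against 151, 153 and 138 CPM in shSamd14 libraries. All 3 shSamd14 libraries lay above the control libraries. The fold was 1.13 (interval 1.03 to 1.23), with an unadjusted p of 0.0148 and an adjusted p of 0.19 by edgeR. Usp53 (chromosome 3, 122931493 to 122984510, minus strand), known for its role in hearing and bile flow, had 9.08, 6.88 and 7.16 CPM in control against 5.59, 5.11 and 5.74 CPM in shSamd14 libraries. These groups did not overlap, the fold was 0.714 (interval 0.579 to 0.879) and the adjusted p was 0.0937 by edgeR. Without control replicate 1, the highest library, its log2 fold change was -0.36, against -0.49 with all libraries. Usp54, its relative, had a log2 fold change of 0.18 (interval -0.09 to 0.45).

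**Figure D4:**
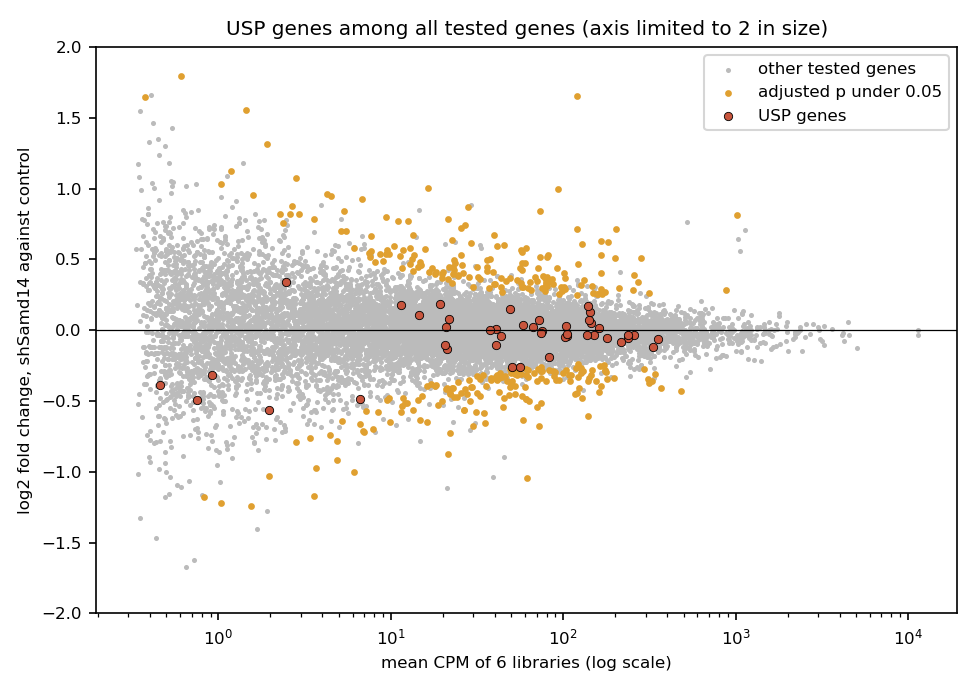
Log2 fold change against mean CPM (log axis) for all 12670 tested genes (grey), those with an adjusted p under 0.05 (orange) and the 44 USP genes (red); 3 genes, none of them a USP gene, lie beyond the axis limits of 2 in size. The USP genes lie within the grey cloud at every level, and the members farthest from 0 have few counts.

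Sequence words in the 3′ untranslated region (UTR) were looked at because an earlier search in these same libraries had found CTGATTA and TGATTAA more often in genes that rose and CAAGTGT and AAGTGTA more often in genes that fell; as they were found in these data, they support nothing here. The search used the transcript strand of the longest annotated 3′ UTR, and a stretch that holds 2 overlapping words counts for both. Of the 44 tested members, 3 held only a word of the first pair (6.82%, against 9.22% of 11870 searched genes), 8 only a word of the second pair (18.2% against 17.1%), 4 held both kinds (9.09% against 5.70%) and 29 held neither (65.9% against 68%). The median log2 fold change was -0.039 for the 3 members with only the first pair and -0.108 for the 8 with only the second, against 0.044 and -0.036 over all searched genes. It was -0.012 for the 4 members with both kinds and -0.004 for the 29 with neither, against -0.020 and 0.014. Usp22, Usp44, Usp39, Usp19, Usp20 and Usp2 held none of the 4 words. Usp37, with a log2 fold change of 0.15, held CTGATTA and CAAGTGT. Usp38 held CAAGTGT and AAGTGTA, and its shSamd14 libraries lay above its control libraries (log2 fold change 0.07). The longest listed transcript of Usp38 shares 24.37% of its 50-base words with other genes, so its count is less certain. A match is a description of letters, not a site of binding. The stretches below are those of Usp53, Usp31, Usp45 and Usp40, 3 of the 5 lower members of smallest p and a further one whose groups did not overlap; they are read 5′ to 3′ from GENCODE M21 transcripts (GRCm38, the assembly of mm10), with the word in capitals.
Usp53, chr3:122933267-122933293, minus strand: tgtgatccttCAAGTGTcttaaaaata
Usp31, chr7:121644273-121644299, minus strand: atgcaagcaaCTGATTAaaaagcatac
Usp31, chr7:121642252-121642278, minus strand: ggctggaagaAAGTGTAtcctacattt
Usp45, chr4:21837326-21837352, plus strand: cttgcatgtgTGATTAAttagtgattt
Usp40, chr1:87946418-87946444, minus strand: tcagaccaaaCAAGTGTgcctggttac

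Usp53 and Usp40 hold a word of the second pair, Usp45 one of the first pair, and Usp31 words of both. The longest 3′ UTR of the tested members had a median of 1998 bases, against 1375 bases over the searched genes, and a longer stretch holds any given word more often.

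The estimated isoform mix gave a second readout. The deposited tables give for each gene a length averaged over its transcripts by their estimated share. A change in this length is therefore a change in the estimated mix, and the error of that estimate was not measured. Within the control group alone, the length of Usp48 was 2859, 3293 and 3020 bases. The length varied between libraries for 25 of the 44 members. It did not overlap between groups for 3 of them (12%), against 11.4% of the 6703 tested genes whose length varied. For Usp20 it was 4735, 5007 and 4725 bases in control and 4612, 4547 and 4510 bases in shSamd14 libraries, all 3 shorter. Usp16 had 3016 ± 7.77 and 3047 ± 3.88 bases, and Usp7 4348 ± 19.2 and 4376 ± 4.79 bases (SD, n = 3 each). With 3 libraries a group, an exact two-sided permutation test cannot go below p = 0.1, so none was run.

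The USP genes also differed between libraries of 1 group. Control replicate 1 had the highest CPM of the 6 libraries for 20 of 44 members (45.5%), against 21.5% of all tested genes. Among the 2749 tested genes at least as long as the median member (4183 bases) that share was 38.4%, and among shorter genes it was 16.8%. The median gene length over all tested genes was 2625 bases. Relative to each gene's mean over 6 libraries, the median of the members was 0.042 on the log2 scale in control replicate 1, -0.042 in control replicate 3 and -0.026 to -0.007 in the shSamd14 libraries, so the distance between these control libraries exceeded that between the groups. What gene length has to do with the USP values was not tested.

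**Figure D5:**
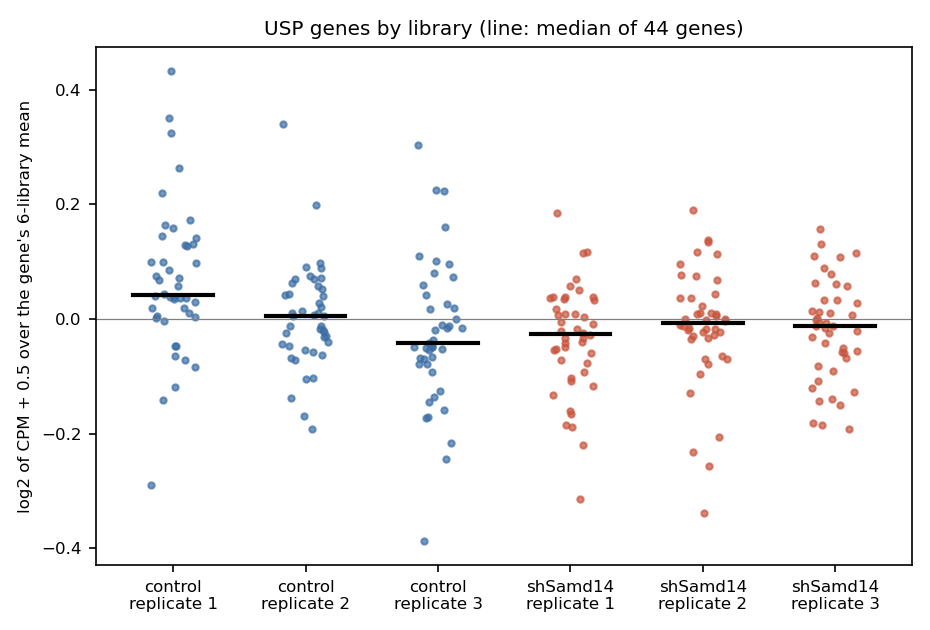
Log2 of CPM + 0.5 over the gene's mean of 6 libraries, 1 point per USP gene (n = 44), by library (blue, control; red, shSamd14), with the median as a line. Medians run from 0.042 in control replicate 1 to -0.042 in control replicate 3, and those of the shSamd14 libraries lie between them.

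Other genes of the ubiquitin pathway were read from lists of USP partners, ubiquitin and its activating enzymes, and the other deubiquitinase families. Of 82 tested genes, 2 passed, both lower in shSamd14, a share near the 2.58% of all tested genes. The median log2 fold change of the 82 was 0.00. Mindy2, a deubiquitinase of the MINDY family that trims long chains, fell from 66.4 ± 3.99 to 48.1 ± 4.19 CPM (SD, n = 3 each; log2 fold change -0.46, adjusted p = 0.00423 by edgeR). Uba6, the alternative ubiquitin-activating enzyme, fell from 60.2 ± 6.86 to 44.2 ± 3.47 CPM (log2 fold change -0.45, adjusted p = 0.0152 by edgeR). All shSamd14 libraries lay below all control libraries for both. Without control replicate 1, Uba6 had a log2 fold change of -0.41 and an adjusted p of 0.0808 by edgeR, which leaves 1 gene. Both genes hold CAAGTGT and AAGTGTA in the 3′ UTR and neither word of the other pair. Over the searched genes, 17.1% held at least 1 word of this pair and no word of the other. The share that held both words of the pair was not computed. As the words were found among genes that fell in these same libraries, these matches support nothing here.

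Of the 39 tested deubiquitinases outside the numbered USPs (UCH, OTU, JAMM, MINDY, Josephin and unnumbered types), Mindy2 was the 1 that passed, a share near the 2.58% of all tested genes. Whether that share differs from 0 of 44 USP genes was not tested. Their median log2 fold change was 0.005, and 18 were negative. Partners of USP genes gave no call. Bmi1, a subunit of the ligase that puts ubiquitin on histone H2A, had 74.4 ± 2.1 and 62.6 ± 4.08 CPM (adjusted p = 0.0653 by edgeR), and Mdm2, the p53 ligase stabilised by Usp7, had 219 ± 21.4 and 187 ± 10.3 CPM (adjusted p = 0.132). For each of these 2 genes the groups did not overlap. Over the 82 tested genes of all these lists, this held for 11 that were lower and 5 that were higher in shSamd14. Of all tested genes it held for 10.2% lower and 10.5% higher. In the SAGA module that carries Usp22, Atxn7 had 31.6 ± 3.81 and 27.3 ± 1.33 CPM (adjusted p = 0.267 by edgeR), while Atxn7l3 had 79.1 ± 1.25 and 80.7 ± 0.796 CPM. In the remaining partner lists the smallest p belonged to Ube2t (log2 fold change -0.15), Stam (-0.13) and G3bp2 (-0.17). Among the ubiquitin genes the smallest p belonged to Ubb (log2 fold change 0.09), and among the other families Vcpip1 of the OTU group (-0.18) and Josd1 of the Josephin group (0.14) had the smallest p, with adjusted p of 0.258 and 0.237 by edgeR. In the UCH, JAMM and unnumbered groups it was Uchl5 (log2 fold change 0.07), Mysm1 (-0.14) and Cyld (-0.04), and their groups of libraries overlapped.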

How the data were processed

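Each library has 1 gene table from RSEM. Per the file headers, it holds the expected counts the authors obtained (reads shared between genes in proportion where they map to several), beside TPM, FPKM and lengths. RSEM 1.2.15, Bowtie 1.0.1, CASAVA 1.8.2 and the build mm10 are named in the submitters' processing notes. Not given in the sources used here: annotation release, strand setting. TPM as deposited by the authors was used for levels, and the deposited FPKM only as a check of TPM (largest deviation 1.23%). Symbols, coordinates and 3′ UTRs are from GENCODE M21 (23580 of 24376 IDs matched).

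Rounded expected counts went into edgeR 4.0.16 (R 4.3.3): filterByExpr (minimum count 10, total 15; 12670 genes kept), TMM factors (0.986 to 1.021), robust dispersions (coefficient of variation 7.52%), two-sided quasi-likelihood test, Benjamini-Hochberg over all tested genes. CPM are TMM-scaled. Standard errors are the log2 fold change over the square root of F, and 95% intervals use the total degrees of freedom. The procedure was tested on simulated data. Libraries of a group differed beyond sampling noise (chi-square per gene 5.73 to 12.2). Named members are the 5 of smallest p in each direction, 10 with well-known roles and the 10 highest and 5 lowest tested. All members not tested are also named. Further ones appear within their role group. The role groups are lists chosen here, and no role was measured in these data. From each pathway list, called genes or the one of smallest p were named, with others chosen after their values were seen. Members, lists and tests were chosen with earlier results of these data known. Alternatives were other scaling factors, filters, effective-length offsets, a replicate block, DESeq2 1.42.0, limma 3.58.1 on log2(TPM + 1) or log2(TPM + 0.1) (genes at 1 TPM or more in 3 libraries), an adjusted p under 0.01, and each library left out.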

Additional observations from a re-analysis of the deposited data

How the results depend on the processing

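The count of 0 called USP genes became 1 without a low-count filter and with DESeq2 (Usp22 in each) and 2 with the replicate number as a block (Usp22, adjusted p = 0.0253, and Usp53, adjusted p = 0.0224, both by edgeR), and ran from 0 to 1 with 1 library left out. The count over all genes was 682 with the replicate block, 168 and 170 with limma on log2(TPM + 1) and log2(TPM + 0.1), 104 at an adjusted p under 0.01, and 128 to 283 with 1 library left out. Whether the replicate numbers pair the samples is not given in the labels. Deviations from the group means correlated at -0.0773, 0.199 and 0.344 for libraries of the same number. For libraries of different number the correlations ran from -0.352 to 0.223, so these values do not settle it. In the pathway lists, with 2 genes called, the count was 3 without a low-count filter, with the replicate block and with DESeq2, while limma called 0 genes with either pseudocount, 1 gene passed at an adjusted p under 0.01, and 1 to 2 with 1 library left out; Uba6 (adjusted p = 0.0694) and Mindy2 (adjusted p = 0.0637) missed the threshold in limma on log2(TPM + 1). The cause of these shifts was not tested. The median log2 fold change of the members stayed negative in each alternative run, from -0.056 to -0.009. With 1 library left out, the sign turned for Usp1 (-0.092 to 0.025), Usp10 (-0.04 to 0.084), Usp14 (-0.069 to 0.005) and Usp16 (-0.05 to 0.031). Of 330 values for 22 named genes under the alternatives, 313 kept their direction and their side of the threshold. Usp44 had no adjusted p by DESeq2 and was counted as kept. Apart from Samd14, Mindy2 and Uba6, these genes were not called in the main fit. Fits with fewer libraries have less power, so keeping the side of the threshold says little for uncalled genes. Depth limits the members under 10 TPM, whose intervals reach from -1.17 to 0.73 on the log2 scale.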
